A study of Arabidopsis thaliana with 36 samples.

Results

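The Aux/IAA and ARF genes encode the repressors and the transcription factors through which plant cells respond to auxin. The 29 Aux/IAA and 15 ARF genes of *Arabidopsis thaliana* were taken from a gene count table by locus name, with no expression filter. They were chosen with earlier results of these data known. The genes account for 44 of the 37973 rows of the table. RNA had been sequenced from roots of *puchi-1*, a mutant allele of the AP2/ERF transcription factor gene *PUCHI*, and of its wild type (WT), ecotype Col-0. Seedlings were gravistimulated at 4 days of age, which makes a lateral root form at the bend, and bends were dissected in *puchi-1* and in the WT at 5 time points, given as hours post-gravistimulation (hpg): 12, 18, 24 and 30 hpg, and lastly 36 hpg. A ‘No LR’ group of each genotype held mature root segments lying between bend and shoot, without developing primordia, which the labels place at 9 h after the stimulus and the study's methods at 12 h. Each of the 12 groups had 3 biological replicates by the study's account, and each bend replicate pooled more than 400 seedlings. The sample titles of replicates 2 and 3 of the *puchi-1* ‘No LR’ group differ only by an added ‘bis’. Both were treated as separate biological replicates, which their titles alone do not settle. A bend holds the primordium together with all tissues around it, so fewer cells of a type and less RNA per cell cannot be told apart in any result given here.

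Auxin brings Aux/IAA proteins together with TIR1/AFB F-box receptors, and an SCF ubiquitin ligase then marks the Aux/IAA protein for degradation. When auxin is low, Aux/IAA proteins bind ARF transcription factors and recruit TOPLESS co-repressors to their target genes. Many Aux/IAA genes are themselves ARF targets and are induced within hours by auxin, which closes a feedback loop. In lateral root formation, IAA14 (SOLITARY-ROOT) holds back ARF7 and ARF19 before the first pericycle divisions, IAA28 acts in the priming of founder cells, IAA3 (SHORT HYPOCOTYL 2) restrains later divisions, and IAA12 acts with ARF5 (MONOPTEROS). From such general knowledge, 13 Aux/IAA genes were counted as auxin-induced and the other 16 were not, and the 5 ARFs known as activators were held apart from the other 10. No auxin treatment belongs to this series. The study itself names *IAA2* as an auxin-induced gene in these samples. In a supplementary heat map it also gave genotype differences from these libraries for *IAA3*, *IAA5*, *IAA11*, *IAA13*, *IAA14*, *IAA19* and *IAA29*. That heat map held no Aux/IAA gene outside the auxin-induced list. The places of these genes in the list, *IAA2* included, are therefore not independent of the samples.

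The libraries held 31.7 to 121.6 M counts (M, 1e6), with a median of 48.1 M. All 44 members were among the 25889 genes with at least 15 reads summed over the 36 libraries, and only those genes were tested. *PUCHI* (AT5G18560) was counted in every library, with 14.6 to 40.6 CPM (counts per 1e6 counts of the library, after scaling) in *puchi-1* bends, against 9.35 to 20.2 CPM in WT bends, and counts per gene do not tell complete from incomplete transcripts. Differences are log2 fold changes (log2FC) of *puchi-1* over the WT, or of the later over the earlier sample, from the quasi-likelihood test of edgeR, with the 12 groups in 1 model. A gene counted as called at an adjusted p under 0.05, by the Benjamini-Hochberg method over all 25889 genes, at any fold change. In the ‘No LR’ segments, root hair and endodermal levels fell from replicate 1 to replicate 3 in both genotypes. The mean log2 CPM of 9 root hair genes was 5.05, 1.80 and -1.52 in *puchi-1* segments, against 5.17, 0.29 and -1.56 in WT segments. That of 9 endodermal barrier genes was 5.99, 2.09 and 0.28 in *puchi-1*, against 6.05, 1.53 and 0.00 in the WT.

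The codons of the degron core are shown first, because they mark the Aux/IAA proteins that the receptors can bind tightly. The degron has a glycine-tryptophan-proline-proline core, encoded by the successive codons GGN, TGG, CCN and CCN, where N is any base. Read in frame on the coding strand of the longest isoform (RefSeq, TAIR10.1), these codons were present in 23 of 29 Aux/IAA genes (79.3%), in 0 of 15 ARF genes, and in 34 of 27444 protein-coding genes (0.124%). The lines below give 36 bases around it for the 5 auxin-induced genes with these codons that had the smallest adjusted p between the genotypes over the bends, for *IAA9*, the member with the highest level per length, and for *IAA27*, which changed in the other direction, with the core codons in capitals.
*IAA2*: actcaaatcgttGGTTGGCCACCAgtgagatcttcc
*IAA3*: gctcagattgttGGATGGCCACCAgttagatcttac
*IAA4*: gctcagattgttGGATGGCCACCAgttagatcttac
*IAA13*: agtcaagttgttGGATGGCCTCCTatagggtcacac
*IAA29*: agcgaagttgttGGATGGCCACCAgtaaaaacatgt
*IAA9*: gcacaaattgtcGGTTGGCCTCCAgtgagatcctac
*IAA27*: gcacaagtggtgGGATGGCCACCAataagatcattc
The stretch was identical in *IAA3* and *IAA4*, whose proteins are close homologs. The 6 Aux/IAA genes without these codons were *IAA20*, *IAA30*, *IAA31*, *IAA32*, *IAA33* and *IAA34*, which belong to the non-canonical members of the family. Genes with and without the degron codons were thus both found among those that differed between the genotypes, since *IAA20* and *IAA30* were higher in *puchi-1* bends, as described below.

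ARFs bind auxin response elements, of which TGTCTC is the classical form and TGTCGG a high-affinity form. Both strings were searched on both strands in the 300 bases upstream of each annotated gene start. TGTCTC was found for 11 of 29 Aux/IAA genes (37.9%), for 7 of the 13 auxin-induced ones (53.8%), for 2 of 15 ARF genes (13.3%) and for 3558 of 27443 protein-coding genes (13%). TGTCGG was found for 6 of 29 Aux/IAA genes (20.7%), for 3 of the 13 auxin-induced ones (23.1%), for 2 of 15 ARF genes and for 1348 protein-coding genes (4.9%). The windows below are those of the 5 auxin-induced genes called in *puchi-1* bends that hold either string, with the element in capitals, which is the reverse complement of TGTCTC in *IAA3*.
*IAA3*, reverse strand of chr1:1129927-1129986: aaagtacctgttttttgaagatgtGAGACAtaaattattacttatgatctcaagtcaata
*IAA5*, reverse strand of chr1:5366688-5366747: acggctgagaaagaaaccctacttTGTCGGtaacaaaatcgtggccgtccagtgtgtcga
*IAA13*, reverse strand of chr2:14116154-14116213: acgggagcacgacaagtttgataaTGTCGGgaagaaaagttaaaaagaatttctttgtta
*IAA20*, forward strand of chr2:19307621-19307680: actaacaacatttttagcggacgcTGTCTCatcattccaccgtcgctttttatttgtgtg
*IAA30*, forward strand of chr3:22995606-22995665: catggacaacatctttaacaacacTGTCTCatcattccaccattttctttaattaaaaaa
Either string was present upstream of 5 of the 9 auxin-induced genes called in the bends (55.6%) and of 3 of the 4 that were not called (75.0%), against 17.3% of all protein-coding genes. A match describes the letters of the window and is not evidence of binding. Of 946 pairs of members, the longest identical upstream runs were 23 bases between *IAA6* and *IAA19* and 18 bases between *IAA20* and *IAA30*, and each holds the element.
*IAA6* and *IAA19*: taTGTCTCtcatgtgaccgacca
*IAA20* and *IAA30*: cTGTCTCatcattccacc
These are pairs of closely related genes on different chromosomes. The next longest runs, of 17 bases between *IAA13* and *ARF9* and between *IAA33* and *ARF10*, held neither element.

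Per kilobase of exon, levels in the bends spanned more than 3 orders of magnitude. *IAA9* was the highest member, with a median of 263 CPM per kb in *puchi-1* bends and 208 CPM per kb in WT bends. *IAA16* followed with medians of 158 and 142 CPM per kb in *puchi-1* and in the WT, and the libraries of the 2 genes overlapped in WT bends but not in *puchi-1* bends. *IAA17* had 97.0 and 83.2 CPM per kb, *ARF2* 68.3 and 59.3, *IAA8* 65.8 and 58.5, and *IAA28* 65.3 and 59.1, and these neighbours overlapped over their libraries. At the other end, *IAA15* had medians of 0.0260 CPM per kb in *puchi-1* bends and 0.0474 in WT bends, and *IAA32* had 0.172 and 0.146, and these 2 overlapped over their libraries. *IAA20*, which was not among the 2 lowest, had 0.402 and 0.185.

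Over the 5 bend time points, 9 of the 13 auxin-induced Aux/IAA genes were higher in *puchi-1*. The mean of the log2FC over the 5 bend time points was called higher for 17 of 44 members, where 5.57% of all genes were called higher, and lower for 1 member, *IAA27*, where 5.32% of all genes were called lower. By class, 9 of 13 auxin-induced Aux/IAA genes were called higher and 0 lower, with a median log2FC of 0.54, and at an unadjusted p under 0.05 the count was 11 of 13. Of the 16 other Aux/IAA genes, 3 were higher and 1 was lower, with a median of 0.09. Of the 5 activating ARFs 1 was higher, and of the 10 other ARFs 4 were higher, both with a median log2FC of 0.15. The log2FC was above 0 for 13 of 13, 12 of 16, 4 of 5 and 9 of 10 genes of these classes, against 47.4% of all genes, whose median was -0.01. The auxin-induced list is not independent of these samples, so the contrast between the classes is descriptive only. Of its called genes, *IAA2*, *IAA3*, *IAA5*, *IAA11*, *IAA13* and *IAA29* were among those the study had shown from these libraries. DESeq2 called 17 members higher and 1 lower. Regulators of lateral root initiation moved in the same bends, with *PUCHI*, *LBD29* and *GATA23* higher in *puchi-1* (log2FC 0.83, 0.79 and 2.39) and *LBD16* lower (-0.84), while *LBD18* was not called (0.34, adjusted p = 0.0578). Their part in the differences of the members was not tested.

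**Figure D1:**
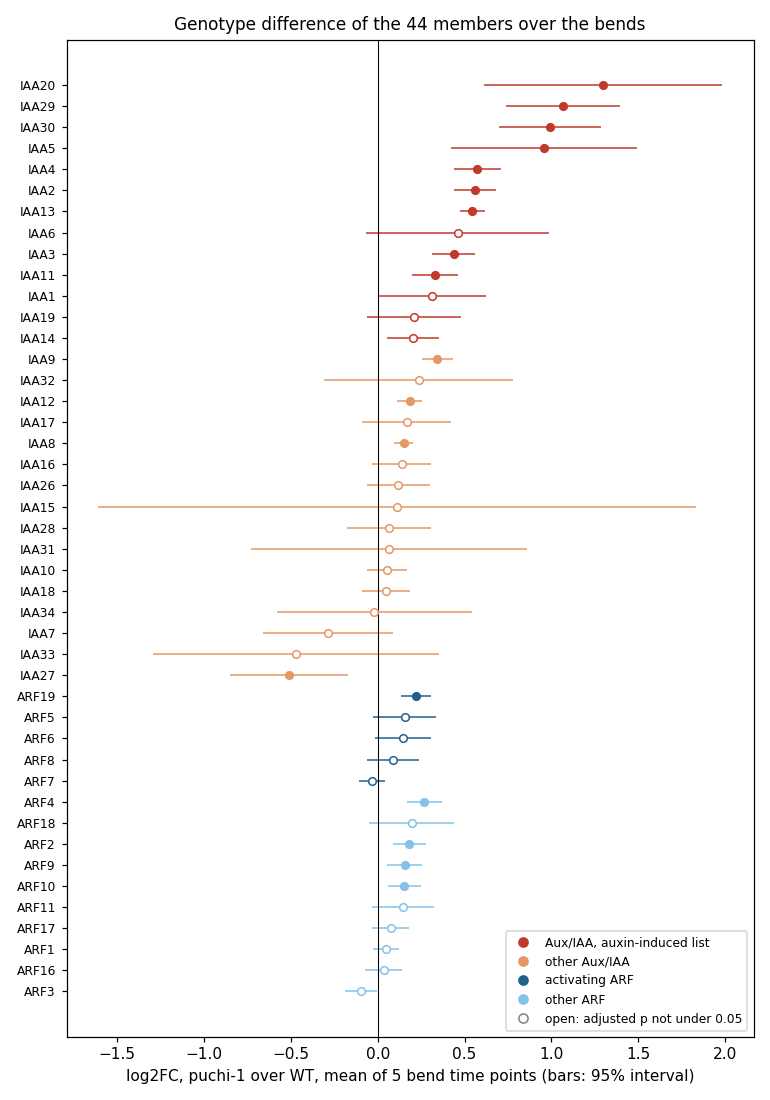
Log2FC of *puchi-1* over the WT, averaged over the 5 bend time points, for the 44 members grouped by class (points, with 95% intervals; filled points have an adjusted p under 0.05). The 13 auxin-induced Aux/IAA genes all lie above 0, and *IAA27* at -0.51 is the only filled point below 0.

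*IAA13* (AT2G33310, chr2:14113025-14116089), a close homolog of *IAA12*, differed most clearly. Its level was 59.3 to 90.6 CPM with a median of 79.0 in the 15 *puchi-1* bends, against 44.5 to 61.8 CPM with a median of 51.6 in the 15 WT bends. At 18 hpg it was 71.4, 65.6 and 71.6 CPM in *puchi-1*, against 44.5, 45.9 and 46.6 CPM in the WT, and at 36 hpg 87.1, 80.6 and 90.6 CPM in *puchi-1*, against 50.2, 54.3 and 54.1 CPM in the WT. All *puchi-1* libraries lay above all WT libraries at every bend time point and also in the ‘No LR’ segments, with 73.4, 77.9 and 82.4 CPM in *puchi-1* against 53.4, 54.2 and 57.2 CPM in the WT. The mean log2FC over the bends was 0.54 ± 0.04 (SE, adjusted p = 3.3e-11). *IAA13* was the only member called at 18, 24, 30 and 36 hpg alike, with log2FC of 0.61, 0.56, 0.53 and 0.70 (adjusted p = 1.1e-04, 2.1e-04, 5.6e-04 and 8.7e-06), and each of these calls held without any single library.

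*IAA2* (AT3G23030, chr3:8180646-8182095) was called at 30 and 36 hpg and in the ‘No LR’ segments. It ranged from 46.9 to 102 CPM with a median of 60.5 in *puchi-1* bends, against 33.8 to 58.1 CPM with a median of 41.6 in WT bends. At 12 hpg the genotypes overlapped, with 54.5, 55.5 and 68.5 CPM in *puchi-1* against 45.9, 51.8 and 57.7 CPM in the WT. They were apart from 18 hpg on, with 49, 46.9 and 54.6 CPM at 18 hpg in *puchi-1* against 33.8, 37.5 and 41.6 CPM in the WT. At 24 hpg *IAA2* had 59.2, 60.5 and 59.6 CPM in *puchi-1*, against 41.1, 41 and 58.1 CPM in the WT, where replicate 3 came close to *puchi-1*. The gap was wider at 30 hpg, with 68.1, 79.9 and 67.2 CPM in *puchi-1* against 40.2, 44.1 and 42.5 CPM in the WT, and at 36 hpg, with 102, 75.0 and 88.0 CPM in *puchi-1* against 40.3, 40.6 and 45.7 CPM in the WT. The log2FC was 0.76 ± 0.13 at 30 hpg and 1.06 ± 0.13 at 36 hpg (SE, adjusted p = 0.00286 and 4.0e-05), and 0.56 ± 0.06 over the bends (adjusted p = 2.1e-07). The calls at 30 and 36 hpg held without any single library.

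*IAA3* and *IAA4*, which share the degron stretch printed above, were both higher. *IAA3* (AT1G04240, chr1:1128149-1129689) had 36.7, 38.9 and 33.1 CPM at 36 hpg in *puchi-1*, against 21.4, 21.9 and 23 CPM in the WT, a log2FC of 0.71 ± 0.13 (adjusted p = 0.00479). Its 3 *puchi-1* libraries were above the 3 WT libraries at 24, 30 and 36 hpg, and the genotypes overlapped at 12 and 18 hpg. *IAA4* (AT5G43700, chr5:17550179-17551715) had 37.9, 47.9 and 40.8 CPM at 24 hpg in *puchi-1*, against 23.8, 27.1 and 22.3 CPM in the WT, and 49.2, 41.1 and 53.6 CPM at 36 hpg in *puchi-1*, against 28.7, 28.9 and 23.2 CPM in the WT. At 24 hpg the log2FC of *IAA4* was 0.79 (adjusted p = 0.00568), and at 36 hpg 0.83 (adjusted p = 0.00278). The 24 hpg call of *IAA4* was lost without replicate 2 of *puchi-1* (log2FC 0.69, adjusted p = 0.0575). The call of *IAA3* at 30 hpg (log2FC 0.59, adjusted p = 0.0320) was lost in 5 of the 6 fits that left out 1 library of the groups compared, and with the replicate number as a block (0.58, adjusted p = 0.124). Over the bends the log2FC was 0.44 for *IAA3* and 0.57 for *IAA4* (adjusted p = 1.3e-05 and 9.3e-07), and both held without any single library.

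Among the called auxin-induced genes, those of lowest level had the largest fold changes, with wider errors. *IAA29* (AT4G32280), best known from the control of elongation growth, had 0.796, 0.808 and 0.895 CPM at 36 hpg in *puchi-1*, against 0.201, 0.296 and 0.271 CPM in the WT, and its *puchi-1* libraries were above the WT libraries at all 5 bend time points. Its log2FC was 1.06 ± 0.16 over the bends (adjusted p = 5.0e-05) and 1.70 ± 0.38 at 36 hpg (adjusted p = 0.0224), the last of which was lost in 5 of 6 fits without 1 library. *IAA30* (AT3G62100) had 3.21, 3.79 and 4.42 CPM at 18 hpg in *puchi-1*, against 0.835, 1.08 and 1.36 CPM in the WT, a log2FC of 1.80 ± 0.33 (adjusted p = 0.00637), which was lost without replicate 1 of the WT (1.64, adjusted p = 0.0713). The genotypes of *IAA30* were apart from 12 to 30 hpg and overlapped at 36 hpg, and its log2FC over the bends was 0.99 ± 0.14 (adjusted p = 2.7e-05).

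*IAA20* (AT2G46990), the relative of *IAA30* with which it shares the upstream run, had 0.098 to 0.936 CPM with a median of 0.397 in *puchi-1* bends, against 0.041 to 0.584 CPM with a median of 0.183 in WT bends. Its genotypes were apart at 24 and 30 hpg only, with 0.653, 0.485 and 0.936 CPM at 30 hpg in *puchi-1* against 0.0799, 0.221 and 0.0764 CPM in the WT. The log2FC over the bends was 1.3 ± 0.33 (adjusted p = 0.0115), and the call was lost when the replicate number was fitted as a block (1.27, adjusted p = 0.0588). *IAA5* (AT1G15580) had 0.421 to 1.43 CPM with a median of 0.758 in *puchi-1* bends, against 0.083 to 1.19 CPM with a median of 0.317 in WT bends, and a log2FC of 0.96 ± 0.26 (adjusted p = 0.0166). *IAA11* (AT4G28640), of the same clade as *IAA12* and *IAA13*, had 9.92 to 17.3 CPM with a median of 13 in *puchi-1* bends, against 7.72 to 14.3 CPM with a median of 10.7 in WT bends. Its log2FC was 0.33 ± 0.06 over the bends (adjusted p = 0.00139) and 0.58 at 36 hpg (adjusted p = 0.0470), a call lost in 5 of 6 fits without 1 library.

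**Figure D2:**
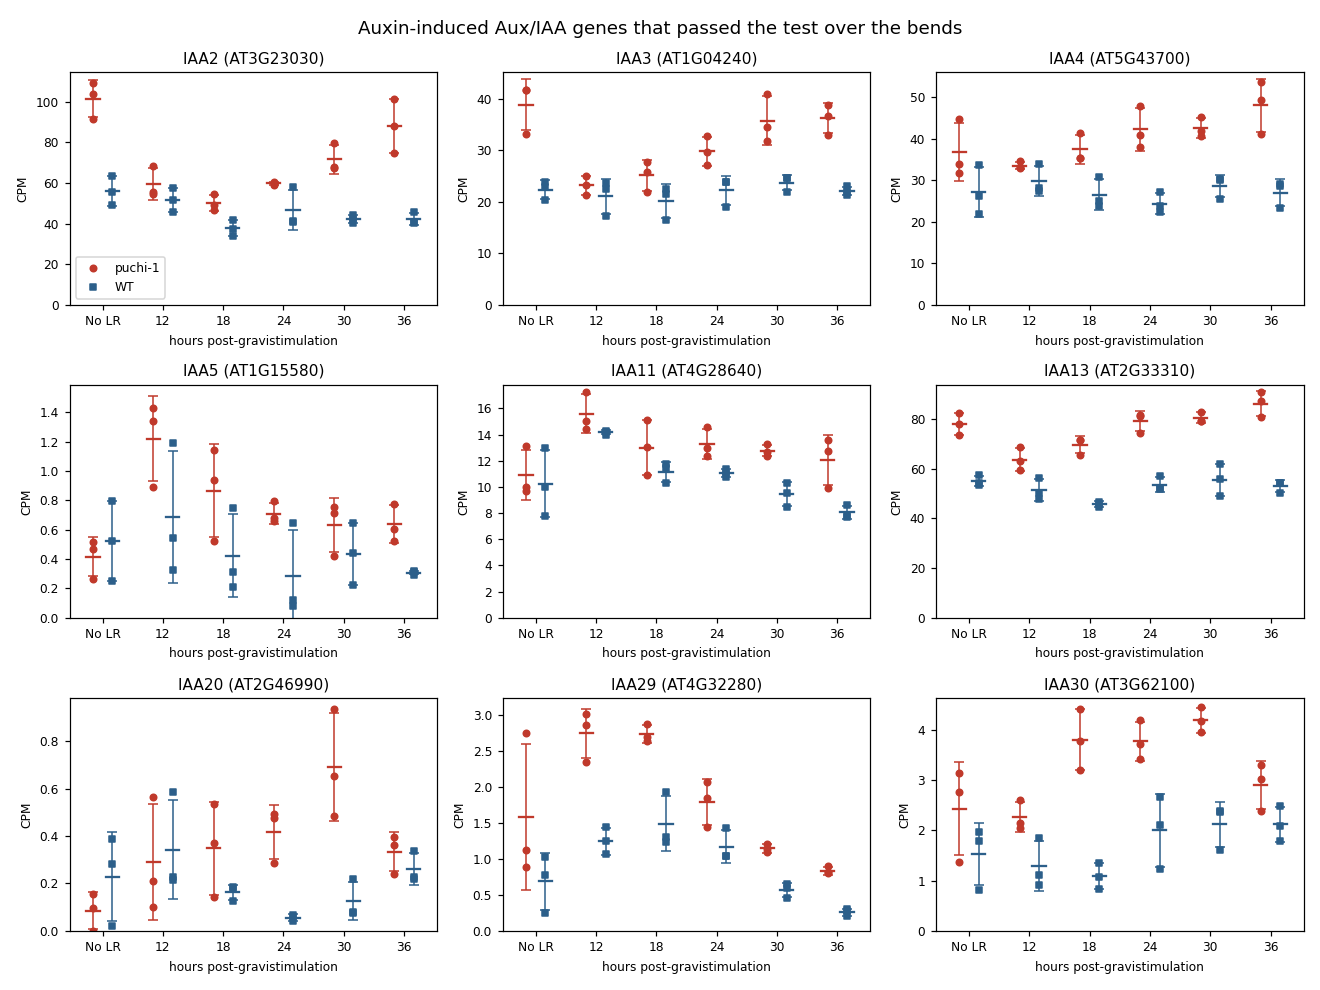
CPM of the 9 auxin-induced Aux/IAA genes called over the bends, by time in hpg, in *puchi-1* (left, circles) and the WT (right, squares); points are libraries and bars the mean ± SD of 3. *IAA13* and *IAA29* are apart at every bend time point, while *IAA2* overlaps at 12 hpg and is farthest apart at 36 hpg.

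The 4 auxin-induced genes that were not called over the bends had log2FC between 0.20 and 0.46. *IAA14* (AT4G14550), the repressor of lateral root initiation, had 13.3 to 22.1 CPM with a median of 17.3 in *puchi-1* bends, against 10.9 to 19.7 CPM with a median of 14.6 in WT bends, and a log2FC of 0.20 with an interval from 0.05 to 0.35 (adjusted p = 0.0697). *IAA1* had a log2FC of 0.31 (interval 0.00 to 0.62), *IAA6* of 0.46 (-0.07 to 0.99), and *IAA19*, which acts in tropic growth, of 0.21 (-0.06 to 0.48). The interval of *IAA14* reaches the log2FC of *IAA11* (0.33) but not that of *IAA3* (0.44), and those of *IAA1*, *IAA6* and *IAA19* reach both. *IAA14* and *IAA1* lie next to each other on chromosome 4, 10732 bases apart and on opposite strands, as do *IAA3* and *IAA17* on chromosome 1 (6388 bases) and *IAA2* and *IAA7* on chromosome 3 (12510 bases), with 0 coding genes between them. *IAA3* and *IAA2* were called higher in *puchi-1* bends, and their neighbours *IAA17* and *IAA7* were not called, with log2FC of 0.17 and -0.29.

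Among the other Aux/IAA genes, the clade of *IAA8*, *IAA9* and *IAA27* was called in all its members, in both directions. *IAA9* (AT5G65670, chr5:26253408-26256544) had 469 to 739.9 CPM with a median of 562 in *puchi-1* bends, against 389 to 489.5 CPM with a median of 446 in WT bends, and its *puchi-1* libraries were above the WT libraries from 12 to 36 hpg without exception. Its log2FC was 0.34 ± 0.04 (adjusted p = 5.0e-06). *IAA8* (AT2G22670) had 126 to 140.1 CPM with a median of 135 in *puchi-1* bends, against 109.8 to 146 CPM with a median of 120.3 in WT bends, and the genotypes overlapped at 12 hpg only. This was a log2FC of 0.15 ± 0.03 (adjusted p = 4.1e-04). *IAA12* (AT1G04550), the partner of ARF5, had 17.9 to 25.8 CPM with a median of 21.7 in *puchi-1* bends, against 15.9 to 22.9 CPM with a median of 19.3 in WT bends. Its genotypes were apart at 12, 18 and 24 hpg, and the log2FC was 0.18 ± 0.04 (adjusted p = 0.00128).

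*IAA27* (AT4G29080, chr4:14323296-14325361) was the exception among the called members. At 12 hpg it had 8.32, 10.2 and 12.2 CPM in *puchi-1*, against 15, 21 and 17.6 CPM in the WT, at 18 hpg 23.6, 25.1 and 24.8 CPM against 34.7, 45.7 and 38.2 CPM, and at 24 hpg 37.0, 36.9 and 39.0 CPM against 59.0, 65.8 and 64.1 CPM. All 3 *puchi-1* libraries were below all 3 WT libraries at these times, and the genotypes overlapped at 30 and 36 hpg. No single time point was called, and the mean log2FC of -0.51 ± 0.16 was just inside the threshold (adjusted p = 0.0438). It was lost in 25 of the 30 fits that left out 1 bend library (adjusted p from 0.0399 to 0.0775) and with the month in the sample titles as a covariate (-0.37, adjusted p = 0.0523). The remaining 12 Aux/IAA genes of this class were not called, with log2FC from -0.47 for *IAA33* to 0.23 for *IAA32*.

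In the ARF family, *ARF19* and *ARF4* were the clearest. *ARF19* (AT1G19220), the activator that acts with ARF7 in lateral root initiation, had 34.3 to 43.8 CPM with a median of 37.7 in *puchi-1* bends, against 28.6 to 36.6 CPM with a median of 32.3 in WT bends. The genotypes were apart from 18 to 36 hpg, and the log2FC was 0.22 ± 0.04 (adjusted p = 8.0e-04). *ARF7* (AT5G20730) had a log2FC of -0.03 with an interval from -0.11 to 0.04, and its genotypes overlapped at every time point.

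*ARF4* (AT5G60450), a target of trans-acting small RNAs, was called at 18 hpg. It had 73.7, 75.6 and 75.3 CPM at 12 hpg in *puchi-1*, against 46.3, 57.3 and 54.2 CPM in the WT, and 60.2, 79.1 and 71.5 CPM at 18 hpg in *puchi-1*, against 49.8, 47.3 and 52.8 CPM in the WT. At 12 hpg the log2FC was 0.51 (adjusted p = 0.0686). At 24 and 36 hpg the genotypes overlapped, at 36 hpg with 48.7, 54.8 and 59.1 CPM in *puchi-1* and 46.5, 48.1 and 56.5 CPM in the WT. The log2FC was 0.27 ± 0.05 over the bends (adjusted p = 4.9e-04) and 0.49 at 18 hpg (adjusted p = 0.0299), which was lost in 5 of 6 fits without 1 library.

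*ARF2* (AT5G62000), a repressing ARF and the highest ARF per length, had 198 to 306 CPM with a median of 264 in *puchi-1* bends, against 189.8 to 264 CPM with a median of 229 in WT bends. The genotypes were apart at 30 and 36 hpg, and the log2FC was 0.18 ± 0.04 (adjusted p = 0.00899). *ARF9* (AT4G23980) had 61.6 to 95.1 CPM with a median of 85.6 in *puchi-1* bends, against 59.7 to 89.7 CPM with a median of 76.8 in WT bends. *ARF10* (AT2G28350) had 29.6 to 35.6 CPM with a median of 32.5 in *puchi-1* bends, against 25.4 to 33.4 CPM with a median of 29.6 in WT bends. The genotypes of both overlapped at 3 of 5 time points. Their log2FC were each 0.15 (adjusted p = 0.0383 and 0.0338), and the calls were lost in 18 and 11 of the 30 fits without 1 library (adjusted p up to 0.0771 and 0.0759). The call of *ARF10* was also lost with the replicate block (adjusted p = 0.0703) and with the month covariate (adjusted p = 0.0820). The other 10 ARFs were not called, with log2FC between -0.10 for *ARF3* and 0.19 for *ARF18*.

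Time point by time point, fewer members passed. At 12 hpg 0 members were called higher and 0 lower, where 0.0232% of all genes were called higher and 0.0502% lower. At an unadjusted p under 0.05 there were 7 higher and 1 lower, and DESeq2 called 2, *IAA13* and *ARF4*. At 18 hpg 3 members were higher (*IAA13*, *IAA30* and *ARF4*) and 0 lower, against 0.239% and 0.182% of all genes. Leaving out replicate 1 of the WT at 18 hpg left 1. At 24 hpg 2 members were higher (*IAA4* and *IAA13*) and 0 lower, against 0.239% and 0.456%, and 1 was left without replicate 2 of *puchi-1*. The dated sample titles of the genotypes share no month at 24 hpg, so genotype and date cannot be told apart there.

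At 30 hpg 3 members were higher (*IAA2*, *IAA3* and *IAA13*) and 0 lower, against 0.201% and 0.297% of all genes. At 36 hpg 7 members were higher, the most of any time point, and 0 lower, against 0.429% and 0.525%. These were *IAA2*, *IAA3*, *IAA4*, *IAA9*, *IAA11*, *IAA13* and *IAA29*, and 4 were left without replicate 2 of the WT or without replicate 3 of *puchi-1*. At an unadjusted p under 0.05, edgeR gave 0 members lower at 18 and 36 hpg and 1, *ARF3*, at 24 and at 30 hpg, and DESeq2 called 0 lower at any time. The median log2FC of the 13 auxin-induced genes was 0.22 at 12 hpg, 0.54 at 18 hpg, 0.51 at 24 hpg, 0.58 at 30 hpg and 0.58 at 36 hpg.

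Whether the difference between the genotypes changed over the 5 bend time points was tested by itself. The F test called 0 of 44 members, against 0.0155% of all genes, with 7 members at an unadjusted p under 0.05 and 1, *IAA2*, called by DESeq2. *IAA2* had an unadjusted p of 5.1e-04 (adjusted p = 0.48) and *ARF4* one of 0.0057 (adjusted p = 0.92). A change over time in the size of the difference was therefore not shown for *IAA2* or *ARF4*, although their values run in opposite directions.

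In the ‘No LR’ segments, 4 members were higher in *puchi-1*, where 0.406% of all genes were called higher, and 0 were lower, where 0.653% were. At an unadjusted p under 0.05 there were 13 higher and 0 lower, and DESeq2 called 7 higher and 0 lower. *IAA2* had 91.4, 109 and 104 CPM in *puchi-1* segments, against 63.5, 49.1 and 55.5 CPM in WT segments, a log2FC of 0.86 ± 0.13 (adjusted p = 0.0015). *IAA3* had 33.2, 41.8 and 41.7 CPM in *puchi-1*, against 23.8, 20.3 and 22.8 CPM in the WT, a log2FC of 0.80 ± 0.13 (adjusted p = 0.00275). *IAA13* and *IAA9* had log2FC of 0.50 and 0.46 (adjusted p = 0.00161 and 0.0210). The genotypes of these 4 genes did not overlap in the segments, replicate 1 included. The call of *IAA9* was lost in 2 of 6 fits without 1 library. These left out replicate 2 of the WT segments or replicate 3 of the *puchi-1* segments, the library titled ‘bis’. Leaving out replicate 1 or replicate 3 of the WT segments raised the count to 7, and leaving out replicate 1 of both genotypes, chosen after seeing the data, gave 5, which include all 4. With the ‘No LR’ libraries fitted on their own, 0 were called.

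More members were called over time than between the genotypes, and the 15 members called between 12 and 36 hpg in both genotypes changed in the same direction in both. Levels varied over 12 to 36 hpg for 20 members in *puchi-1*, where 24.4% of all genes varied, and for 18 in the WT, where 28.2% did. In both genotypes 13 members varied. The shares of all genes that varied in both, or changed in the same direction in both, were not counted. In *puchi-1*, 17 members were higher at 36 than at 12 hpg and 7 lower, where 17.7% and 15.9% of all genes were. In the WT, 10 were higher and 10 lower, where 18.9% and 17.3% of all genes were. Of the auxin-induced Aux/IAA genes, 4 were higher and 2 lower at 36 hpg in *puchi-1*, with a median log2FC of 0.18, and 0 were higher and 3 lower in the WT, with a median of -0.30. Of the ARFs, 9 were higher and 1 lower in *puchi-1*, and 7 were higher and 1 lower in the WT. Over the same hours the bends also lost root hair and endodermal transcripts, with 9 of 9 and 8 of 9 such genes lower at 36 hpg in *puchi-1*, and 4 of 9 and 7 of 9 lower in the WT. The mean log2 CPM of the root hair genes was -0.04, -0.67 and 2.14 at 36 hpg in *puchi-1*, against 5.99, 5.62 and 5.56 at 12 hpg, and 3.09, 1.70 and -1.86 at 36 hpg in the WT, against 4.82, 5.37 and 5.34 at 12 hpg. Of 7 xylem genes, 6 were lower and 1 higher at 36 hpg in both genotypes, with a median log2FC of -1.76 in *puchi-1* and -1.79 in the WT. The part of these tissues in the changes of the members was not tested.

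The steepest rise was that of *IAA27*, a member of the clade of *IAA8* and *IAA9*. In *puchi-1* it had 73.2, 88.1 and 73.8 CPM at 36 hpg, against 8.32, 10.2 and 12.2 CPM at 12 hpg, and in the WT 82.0, 90.7 and 89.7 CPM at 36 hpg, against 15, 21 and 17.6 CPM at 12 hpg. Its log2FC was 2.94 ± 0.40 in *puchi-1* and 2.29 ± 0.38 in the WT (adjusted p = 1.4e-05 and 1.3e-04). Group means rose at each step, with 10.3, 24.5, 37.6, 69.1 and 78.4 CPM from 12 to 36 hpg in *puchi-1* and 17.9, 39.5, 63.0, 76.9 and 87.5 CPM in the WT. *IAA26* (AT3G16500) ran alike, with 59.8, 56.8 and 60.5 CPM at 36 hpg in *puchi-1*, against 20.8, 25 and 24.5 CPM at 12 hpg, and log2FC of 1.33 in *puchi-1* and 1.06 in the WT (adjusted p = 4.1e-05 and 3.1e-04).

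The members that fell were led by *IAA31* (AT3G17600), a non-canonical Aux/IAA of low level. It had 0.225, 0.364 and 0.592 CPM at 36 hpg in *puchi-1*, against 5.69, 4.77 and 3.79 CPM at 12 hpg, and 0.731, 0.296 and 0.181 CPM at 36 hpg in the WT, against 2.86, 4.23 and 3.76 CPM at 12 hpg. The log2FC was -3.56 ± 0.88 in *puchi-1* and -3.14 ± 0.87 in the WT (adjusted p = 0.00278 and 0.00665), and most of the fall lay between 12 and 18 hpg, where the means were 4.75 and 0.958 CPM in *puchi-1* and 3.62 and 0.995 CPM in the WT. *IAA29* also fell in both genotypes, with log2FC of -1.71 in *puchi-1* and -2.28 in the WT, so that it was higher in *puchi-1* along a falling course.

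*IAA7*, *IAA17* and *IAA28*, whose stabilised proteins are known to block root hair or lateral root formation, fell together. *IAA7* (AT3G23050) had 20.4, 26.4 and 24.8 CPM at 36 hpg in *puchi-1*, against 78.4, 88.2 and 89.4 CPM at 12 hpg, and its log2FC was -1.84 in *puchi-1* and -1.61 in the WT (adjusted p = 0.00148 and 0.00380). *IAA17* (AT1G04250) had 107, 98.8 and 131 CPM at 36 hpg in *puchi-1*, against 209.8, 204 and 243 CPM at 12 hpg, and 103, 75.9 and 78.7 CPM at 36 hpg in the WT, against 173, 239 and 232 CPM at 12 hpg. It had log2FC of -0.96 and -1.32 in *puchi-1* and in the WT (adjusted p = 0.00929 and 8.9e-04), and *IAA28* (AT5G25890) of -1.38 and -1.24 (adjusted p = 3.9e-04 and 9.4e-04). For *IAA28* the libraries at 12 hpg were between 145 and 166 CPM and those at 36 hpg between 56.7 and 72.9 CPM over both genotypes. *IAA19* (AT3G15540) fell as well, with 10.5, 7.27 and 8.40 CPM at 36 hpg in *puchi-1*, against 25.6, 19.3 and 25.9 CPM at 12 hpg, and 7.04, 8 and 9.05 CPM at 36 hpg in the WT, against 14.9, 19.5 and 23.3 CPM at 12 hpg. The 36 hpg libraries were all below the 12 hpg libraries, with log2FC of -1.43 in *puchi-1* and -1.26 in the WT. For *IAA7*, *IAA17*, *IAA19*, *IAA26*, *IAA27*, *IAA28*, *IAA29* and *IAA31* each call of 36 over 12 hpg held in both genotypes without any single library.

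**Figure D3:**
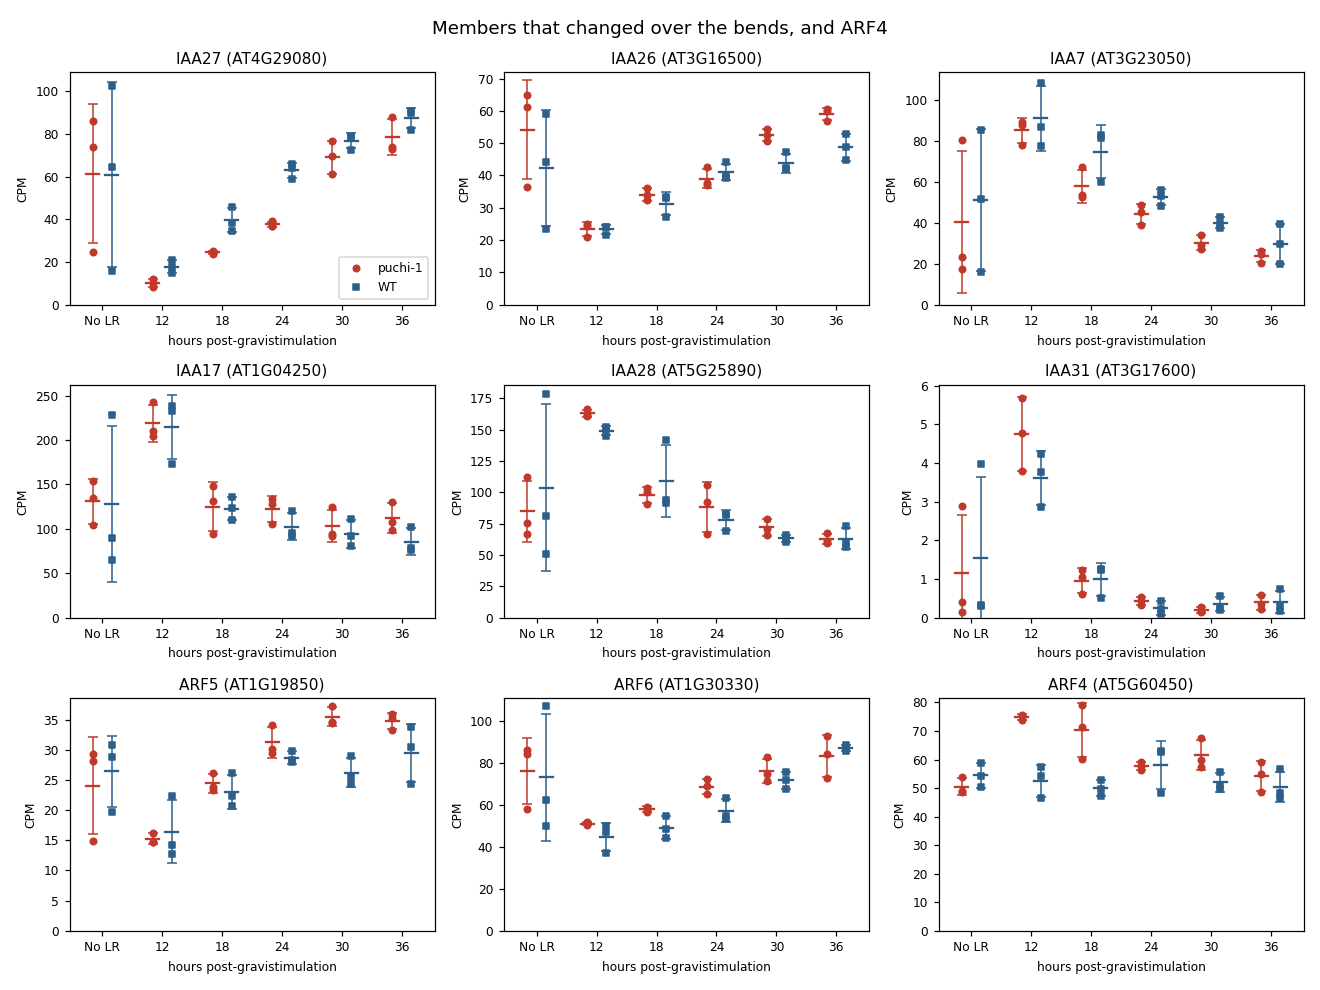
CPM of 9 members by time in hpg, in *puchi-1* (left, circles) and the WT (right, squares); points are libraries and bars the mean ± SD of 3. *IAA27*, *IAA26*, *ARF5* and *ARF6* climb toward 36 hpg in both genotypes, *IAA7*, *IAA17*, *IAA28* and *IAA31* decline, and *ARF4* starts higher in *puchi-1* and overlaps at 36 hpg.

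Of the 5 activating ARFs, 3 were higher at 36 than at 12 hpg in each genotype, and 1 was lower in the WT. *ARF5*, which acts in primordium patterning, had 36.0, 35.2 and 33.3 CPM at 36 hpg in *puchi-1*, against 16.3, 14.7 and 14.7 CPM at 12 hpg, and 24.3, 33.7 and 30.5 CPM at 36 hpg in the WT, against 12.7, 14.3 and 22.4 CPM at 12 hpg. Its log2FC was 1.19 ± 0.20 in *puchi-1* and 0.84 ± 0.20 in the WT (adjusted p = 1.0e-04 and 0.00179). *ARF6* and *ARF8*, a pair of close homologs, had log2FC of 0.71 and 0.59 in *puchi-1* and of 0.97 and 0.79 in the WT. *ARF7* was lower by 36 hpg in the WT, with a log2FC of -0.28 (adjusted p = 0.0111), and was not called in *puchi-1*, and *ARF19* was called in neither. Of the other ARFs, *ARF18*, *ARF16* and *ARF9* rose in both genotypes, with log2FC of 0.87, 0.40 and 0.41 in *puchi-1* and of 0.97, 0.37 and 0.28 in the WT. The WT calls of *ARF9* and of *ARF3* (log2FC 0.27) were each lost in 5 of 6 fits without 1 library.

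Several members were called over time in a single genotype. In *puchi-1* alone these were *IAA2*, *IAA3*, *IAA4*, *IAA9* and *IAA13*, with log2FC of 0.57, 0.64, 0.52, 0.30 and 0.44, and *ARF1*, *ARF2* and *ARF11*, with 0.26, 0.38 and 0.57, all higher at 36 than at 12 hpg, and *ARF4*, which fell by 0.47 on the log2 scale. In the WT alone *IAA8*, *IAA11*, *IAA16* and *ARF7* fell, by 0.23, 0.81, 0.63 and 0.28, and *ARF3* rose. Without 1 library the calls of *IAA9*, *ARF1* and *ARF11* in *puchi-1* were lost in 3, 2 and 4 of 6 fits. The F test of whether the genotype difference changed over the bends, given above, called none of these 14 members by edgeR. The courses are therefore not shown to differ.

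**Figure D4:**
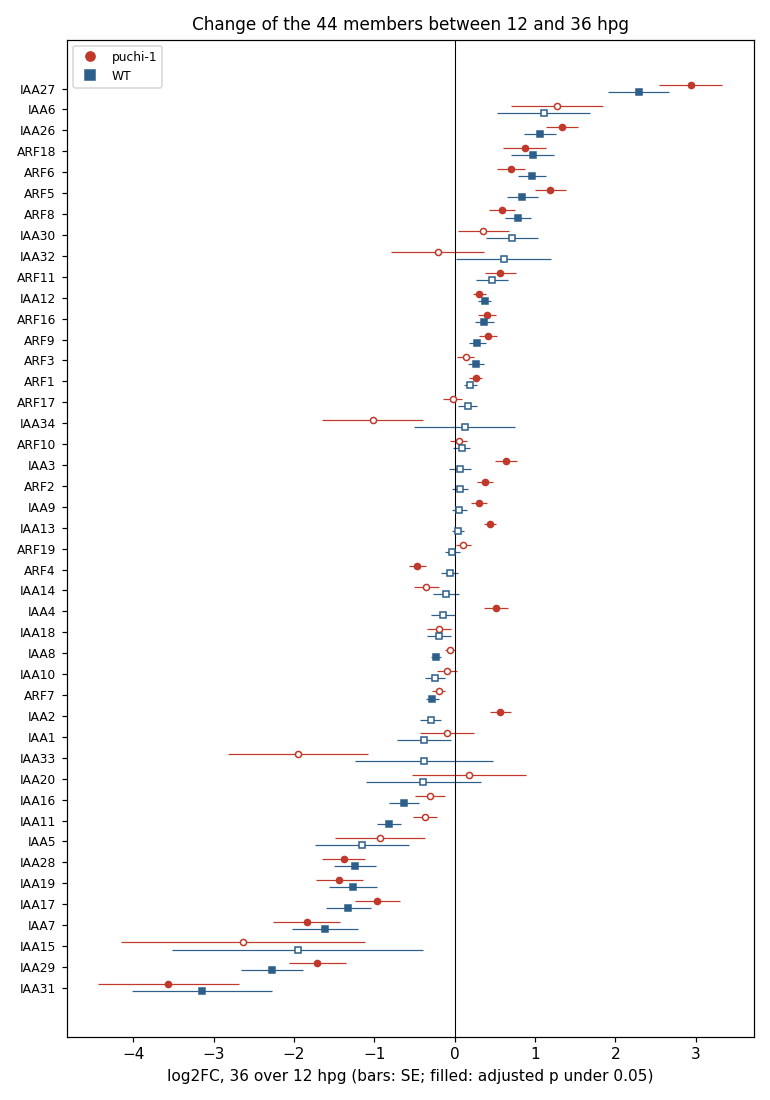
Log2FC of 36 over 12 hpg for each member, in *puchi-1* and in the WT, with SE bars; both rest on 3 against 3 libraries. *IAA27* lies at 2.94 in *puchi-1* and 2.29 in the WT, and *IAA31* at -3.56 and -3.14, so the largest changes have the same sign in both genotypes.

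The 12 hpg bends were also set against the ‘No LR’ segments of the same genotype, a comparison that shares the 12 hpg libraries with those above. In *puchi-1*, 5 members were higher and 13 lower at 12 hpg, where 11.2% and 13% of all genes were. In the WT, 0 were higher and 4 lower, where 0.919% and 3.25% of all genes were, with 6 higher and 8 lower at an unadjusted p under 0.05 and 3 higher and 4 lower by DESeq2. *IAA26*, *IAA27*, *ARF5* and *ARF6* were lower at 12 hpg in both genotypes, with log2FC of -1.21, -2.59, -0.66 and -0.58 in *puchi-1* and of -0.85, -1.77, -0.68 and -0.72 in the WT. In *puchi-1* segments *IAA27* had 24.5, 86.0 and 73.8 CPM, and in WT segments 15.9, 64.5 and 102 CPM, so replicate 1, with the high root hair and endodermal levels, was low in both genotypes. *ARF4* was higher at 12 hpg in *puchi-1*, with a log2FC of 0.57 (adjusted p = 6.8e-04), and in the WT it had 46.3, 57.3 and 54.2 CPM at 12 hpg, against 50.2, 54.3 and 58.9 CPM in the segments.

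The counts of this comparison depended on single libraries. In the WT the count was 18 without replicate 1 of the ‘No LR’ segments, 2 without their replicate 2, and 0 without their replicate 3 or without replicate 1 of the 12 hpg bends. In *puchi-1* it was 8 without replicate 2 or 3 of the segments and 10 without replicate 1 or 2 of the 12 hpg bends. Of the 7 xylem genes, 6 were higher and 1 lower at 12 hpg in *puchi-1*, and in the WT 0 were called by edgeR, with 3 at an unadjusted p under 0.05. The part of root hair, endodermal and xylem tissue in these differences was not tested.

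With both axes in view, 13 members were called over the bends by genotype and by time, 5 by genotype only (*IAA5*, *IAA20*, *IAA30*, *ARF10* and *ARF19*), 16 by time only, and 10 by neither. A call by time could come from the F test over 12 to 36 hpg or from 36 over 12 hpg, in either genotype. A call by genotype could come only from the mean over the bends, so the counts rest on unequal numbers of tests. The shares of all genes in these classes were not counted, so the counts do not set the members apart from other genes. The 10 that passed none of these tests were *IAA1*, *IAA6*, *IAA10*, *IAA14*, *IAA15*, *IAA18*, *IAA32*, *IAA33*, *IAA34* and *ARF17*. Among those of moderate level, *IAA10* had 10.05 to 13.1 CPM in *puchi-1* bends and 8.69 to 13.1 CPM in WT bends, *IAA18* had 10.8 to 19.5 and 11.9 to 17.4 CPM, and *ARF17*, a target of a microRNA together with *ARF10* and *ARF16*, had 13.1 to 17.4 and 12.0 to 18.5 CPM. Their log2FC between the genotypes had intervals of -0.06 to 0.17, -0.09 to 0.19 and -0.03 to 0.18. *ARF10* and *ARF19*, called by genotype, varied little over time, with the highest group mean 1.06 and 1.13 times the lowest in *puchi-1* bends and 1.12 and 1.13 times in WT bends. Several members were thinly counted. *IAA15* had 58 reads over the 36 libraries and 0 in 15 of them, *IAA33* had 303 reads, *IAA34* had 416, *IAA20* had 520 and *IAA32* had 669. Of these, *IAA20* was called between the genotypes, and the intervals of the log2FC over the bends were wide for the others, from -1.61 to 1.83 for *IAA15*, from -1.30 to 0.35 for *IAA33*, from -0.58 to 0.54 for *IAA34* and from -0.31 to 0.78 for *IAA32*.

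Genes of the partners of the Aux/IAA proteins had small log2FC between the genotypes. Of 6 TIR1/AFB receptor genes, 5 TOPLESS co-repressor genes and 3 genes of the SCF core, 0 were called over the bends by edgeR. Of all genes, 5.57% were called higher and 5.32% lower over the bends. With so few genes, a count of 0 does not set these lists apart from all genes. At an unadjusted p under 0.05 edgeR gave 1 in each list, and DESeq2 called 0. The log2FC over the bends ran from 0.00 to 0.14 for the receptors, from -0.09 to 0.13 for the co-repressors and from -0.07 to 0.00 for the SCF core. The one call at a single time was *TIR1* at 36 hpg, higher in *puchi-1* with a log2FC of 0.29 ± 0.07 (adjusted p = 0.0278). Between 12 and 36 hpg, 1 receptor gene was higher in *puchi-1* (*AFB4*, log2FC 0.41), and 1 was lower in the WT (*TIR1*, -0.30). Of the co-repressor genes, *TPR1* was lower in both genotypes (-0.43 in *puchi-1* and -0.53 in the WT), and *TPR3* was higher in the WT (0.38). Of the SCF core, 2 genes were lower in each genotype, *ASK1* and *RBX1* in *puchi-1* (-0.19 and -0.22) and *ASK1* and *CUL1* in the WT (-0.25 and -0.26). Over all genes, 17.7% were higher and 15.9% lower in *puchi-1*, and 18.9% and 17.3% in the WT.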

How the data were processed

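RNAseq libraries were made from 36 samples, 3 of each of 12 groups defined by genotype and time. The deposited table holds raw counts per gene, which the authors made with stranded featureCounts 2.0.0 after alignment with TopHat2 2.1.1 to TAIR10. Of the 37973 rows, 87 had no locus (0.07 to 0.362% of counts). They were kept in the library totals and put through the same filter as the others. The 25889 genes with at least 15 reads in sum were tested. Libraries were scaled by TMM, and 1 model of the 12 groups was fitted with edgeR 4.0.16 (glmQLFit and glmQLFTest) in R 4.3.3, with 24 residual degrees of freedom, no replicate block and Benjamini-Hochberg adjustment over all genes tested. CPM used the same scaling. Intervals of log2FC are 95% intervals. The fit was tested on simulated data.

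The members were listed by locus, and values by library or as lowest, median and highest are given for members called in a genotype comparison or in the mean over the bends and for the 8 with the largest change between 12 and 36 hpg among those called as varying. The rule also names members under the low-count limit, of which there were 0. Others are given by range and count, with some library values of *IAA14*, *ARF5*, *IAA10*, *IAA18* and *ARF17* added after their values were seen. Members and lists were chosen with earlier results of these data known. Alternatives were DESeq2 1.42.0, its size factors, no low-count filter, a replicate block, the month in the sample titles as a covariate, only the groups compared, and leaving out each library in turn. Leaving out replicate 1 of both ‘No LR’ groups was added after seeing the data. The month covariate is a limited control for date, as some titles bear no month and the same month can stand for different years. Same-numbered replicates of the genotypes deviated together with a correlation over 0.1 in 9 of 18 pairs (range -0.515 to 0.774), and in every pair only at 18 hpg (0.66, 0.34 and 0.68), where the block gave the same 3 calls. Depth limits the precision of the genes with few reads.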

Additional observations from a re-analysis of the deposited data

How the results depend on the processing

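Of 103 calls of single members followed, 65 held without any 1 library, 63 in all other settings and 59 in every setting, and 0 reversed. The number of members called in the ‘No LR’ segments was 4, against 7 with DESeq2 and 0 with only the groups compared. At 12 hpg it was 0, against 2 with DESeq2 and 1 with the month covariate. At 24 hpg it was 2, against 5 with DESeq2, and at 30 hpg 3, against 6 with DESeq2 and 5 with the month. At 36 hpg it was 7, against 4 with only the groups compared, and for the change of the genotype difference over time it was 0, against 1 with DESeq2. For 12 hpg over ‘No LR’ it was 18 in *puchi-1*, against 5 with only the groups compared, and 4 in the WT, against 7 with DESeq2, 13 with the month and 0 with only the groups compared. A fit to the groups compared has fewer samples to estimate the spread; the cause of the other shifts was not tested.

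Leaving out 1 library gave 4 to 7 in the ‘No LR’ segments, 0 to 0 at 12 hpg, 1 to 3 at 18 hpg, 1 to 3 at 24 hpg, 2 to 3 at 30 hpg, 4 to 8 at 36 hpg, 15 to 18 over the bends and 0 to 0 for the change of the difference. Over time it gave 15 to 20 (*puchi-1*) and 13 to 20 (WT) varying members, 21 to 25 and 17 to 20 for 36 over 12 hpg, and 8 to 24 and 0 to 18 for 12 hpg over ‘No LR’.

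With the replicate block, the counts were 4, 0, 3, 3, 3 and 7 in the ‘No LR’ segments and from 12 to 36 hpg, 18 over the bends (16 of them shared), 0 for the change of the difference, 21 and 22 varying members in *puchi-1* and in the WT, 24 and 21 for 36 over 12 hpg, and 20 and 4 for 12 hpg over ‘No LR’. At 30 hpg 2 of its 3 calls were shared, as *IAA3* was lost and *IAA4* gained. Outside 18 hpg the correlations of same-numbered replicates were mixed. They were 0.77, -0.19 and 0.68 in the ‘No LR’ segments, and 0.34, 0.48 and 0.04 at 30 hpg. At 36 hpg they were -0.51, -0.32 and -0.34. By the months in the sample titles, same-numbered replicates of the genotypes matched at 18 hpg. At 12 hpg the months differed in every pair. At 24 and 36 hpg they differed in every pair where both titles bore one. At 30 hpg and in the ‘No LR’ segments they matched in some pairs. The dated WT titles at 24 hpg bore July or August, and the only dated *puchi-1* title bore March. What the dates record is not stated, so whether the numbers pair the samples outside 18 hpg was not settled.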
